A study of Homo sapiens with 16 samples.

Results

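The BCL2 family decides whether the mitochondrial outer membrane stays intact, and its 10 core genes were examined here for changes in H3K27ac, a histone acetylation found at promoters and enhancers in use. The members were chosen by name: the pro-survival genes BCL2L1, BCL2, MCL1 and BCL2L2, and the pro-death genes BAX, BAK1, BCL2L11, BBC3, PMAIP1 and BID. They were chosen from results of the same lists of changed regions that are described below, so that their counts are a description and were not tested. They are 10 of 19962 protein-coding genes in the annotation. A region was given to a member when any base of it lay in the gene body or within 100 kb of the gene's 5′ end, which gave 31 of the 7130 listed regions.

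LX-2, an immortalised line of human hepatic stellate cells in the myofibroblastic state, was treated for 24 h with 50 µM OSMI-1 or with vehicle (DMSO). OSMI-1 is a small-molecule inhibitor of O-GlcNAc transferase (OGT), the enzyme that attaches O-GlcNAc to serine and threonine residues of nuclear and cytosolic proteins, and is called OGTi below. The H3K27ac ChIP-seq consisted of 4 biological replicates per condition. The other 8 of the 16 libraries (ChIP inputs and CoP-seq libraries with their inputs) were not analysed here. The ChIP inputs entered only through the peak calling of the authors. All libraries came from a single immortalised line, so the results describe cultured LX-2 cells and not stellate cells of a liver. The data are 2 lists of regions, 3507 that lost and 3623 that gained H3K27ac under OGTi. They hold positions but no value for any replicate, so that neither the size of a change nor its error can be given, and the depth behind a region is unknown. Because the lists hold changed regions alone, the identity of the cells could not be checked against their markers.

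Pro-survival members hold the outer membrane closed by binding their pro-death relatives in a groove that receives the BH3 helix. BAX and BAK1 are the effectors that oligomerise and open the membrane, which releases cytochrome c and starts the caspase cascade. BH3-only proteins (BIM from BCL2L11, PUMA from BBC3, NOXA from PMAIP1, and BID) are the sensors that load this switch. In hepatic stellate cells the family is known for the balance between persistence of myofibroblasts and their removal by apoptosis when fibrosis resolves.

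Sequences of the regions that carry the pattern are shown first. BCL2L1 encodes BCL-xL, and its large second intron held most of its gained regions. Of its 9 gained regions lying wholly in this intron, 8 contained the letters TTCNNNGAA, the consensus read by STAT factors. Of all 3623 gained regions, 40.3% held these letters. The 9 regions share 1 locus and some of them abut, so they are not independent and the count is a description. The match with the lowest coordinate in each of the 8 is printed with 20 bases on either side. All are given on the plus strand of hg38, while BCL2L1 lies on the minus strand, and capitals mark the match. They are ordered from the 5′ end of the gene towards its 3′ end.
BCL2L1 intron 2, match at chr20:31717936-31717944: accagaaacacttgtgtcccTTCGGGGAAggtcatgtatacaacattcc
BCL2L1 intron 2, match at chr20:31717005-31717013: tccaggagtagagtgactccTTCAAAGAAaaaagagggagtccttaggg
BCL2L1 intron 2, match at chr20:31714465-31714473: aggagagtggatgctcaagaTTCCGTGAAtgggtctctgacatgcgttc
BCL2L1 intron 2, match at chr20:31705218-31705226: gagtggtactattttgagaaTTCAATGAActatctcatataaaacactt
BCL2L1 intron 2, match at chr20:31701867-31701875: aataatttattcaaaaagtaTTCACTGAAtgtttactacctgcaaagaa
BCL2L1 intron 2, match at chr20:31699170-31699178: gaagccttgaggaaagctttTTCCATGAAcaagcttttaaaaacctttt
BCL2L1 intron 2, match at chr20:31697291-31697299: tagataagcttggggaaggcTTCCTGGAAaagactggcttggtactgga
BCL2L1 intron 2, match at chr20:31675955-31675963: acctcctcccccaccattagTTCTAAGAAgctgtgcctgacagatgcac

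The upstream sequences of 3 pro-death genes whose 5′ ends were reached by a gained region are printed next, as the 250 bases before the RefSeq start (GRCh38.p14) in the direction of transcription. Capitals mark matches on either strand to CACGTG, the E-box. They also mark GGGCGG, the element of SP and KLF factors. CCAAT boxes are marked in the same way. So is the forkhead (FOXO) element GTAAACA. BAX (chr19:48954625-48954874, plus strand), PMAIP1 (chr18:59899746-59899995, plus strand) and BCL2L11 (chr2:111120664-111120913, plus strand) read as follows.
BAX: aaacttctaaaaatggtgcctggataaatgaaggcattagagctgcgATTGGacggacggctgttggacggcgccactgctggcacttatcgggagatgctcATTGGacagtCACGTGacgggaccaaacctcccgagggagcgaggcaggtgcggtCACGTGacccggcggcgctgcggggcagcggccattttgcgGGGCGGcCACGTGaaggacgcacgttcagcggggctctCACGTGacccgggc
PMAIP1: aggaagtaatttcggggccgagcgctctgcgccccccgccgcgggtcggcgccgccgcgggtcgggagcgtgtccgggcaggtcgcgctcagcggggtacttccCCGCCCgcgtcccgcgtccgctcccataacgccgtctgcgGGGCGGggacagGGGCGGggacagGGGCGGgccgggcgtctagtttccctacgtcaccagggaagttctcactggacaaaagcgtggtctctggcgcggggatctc
BCL2L11: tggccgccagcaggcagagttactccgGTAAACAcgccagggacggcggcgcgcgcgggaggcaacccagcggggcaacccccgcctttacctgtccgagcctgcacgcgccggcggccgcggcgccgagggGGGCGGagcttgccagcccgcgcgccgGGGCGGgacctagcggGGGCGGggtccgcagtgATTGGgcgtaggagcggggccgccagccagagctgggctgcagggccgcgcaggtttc

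The only lost region inside a member lay in BID. The central 300 bases of its 493 bp (chr22:17772939-17773238, plus strand, within intron 1) are shown because BID was the member with a loss and no gain. Capitals mark a match to the NF-kB consensus, the only one of the 14 searched motifs found in these 300 bases.
BID: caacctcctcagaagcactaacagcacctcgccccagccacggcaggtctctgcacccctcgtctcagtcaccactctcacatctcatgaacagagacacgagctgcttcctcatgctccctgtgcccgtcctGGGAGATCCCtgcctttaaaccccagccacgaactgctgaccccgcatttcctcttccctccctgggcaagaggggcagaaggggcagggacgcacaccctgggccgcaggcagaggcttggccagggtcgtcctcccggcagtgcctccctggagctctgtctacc

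The family held 27 gained and 4 lost regions, and 12 of the gained ones were at BCL2L1. Gains also led over all protein-coding genes, with 9747 gained and 7647 lost regions when a region is counted at every gene it is given to. At least 1 gained region was found at 8 of 10 members (BCL2L1, BCL2, MCL1, BAX, BAK1, BCL2L11, BBC3 and PMAIP1), where 30.6% of all protein-coding genes had one under the same rule. At least 1 lost region was found at 2 of 10 members, MCL1 and BID, against 21.7% of all genes. MCL1 was the only member with regions of both directions (7.23% of all genes), and 7 members had gained regions alone (23.3% of all genes). BCL2L2 had neither. Since the members were chosen with these lists known, no more than the counts themselves is read from these shares.

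**Figure D1:**
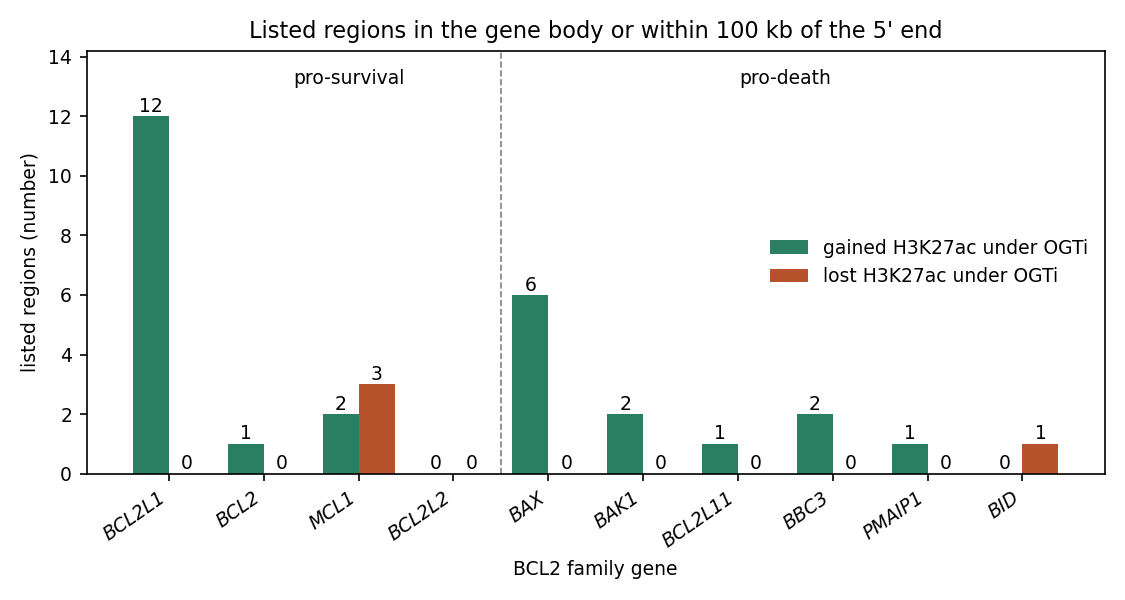
Number of listed regions (y axis) in the gene body or within 100 kb of the 5′ end of each BCL2 family gene (x axis), gained in green and lost in orange, with pro-survival genes to the left of the dashed line. BCL2L1 stands highest with 12 gained regions, BAX follows with 6, and lost regions are seen at MCL1 (3) and BID (1).

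The pro-survival and pro-death classes were then set side by side. The 4 pro-survival genes held 15 gained and 3 lost regions, and the 6 pro-death genes held 12 gained and 1 lost region. Of the pro-survival gains, 12 belonged to BCL2L1, which left 3 for BCL2, MCL1 and BCL2L2 together. With regions within 1000 bp of each other joined, BCL2L1 had 5 gained regions. The median member had 1.5 gained regions in either class and no lost region. Among pro-death genes the effectors BAX and BAK1 had 8 gained and no lost region, and the BH3-only genes BCL2L11, BBC3, PMAIP1 and BID had 4 gained and 1 lost. At least 1 gained region was given to 3 of 4 pro-survival and 5 of 6 pro-death genes, beside 30.6% of all protein-coding genes. In gene bodies alone, 1 pro-survival and 3 pro-death genes had a gain. Several of the gained regions lay at neighbouring genes, as described below, so the class counts are a description of windows.

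At the 5′ ends themselves the classes held fewer regions. A gained region reached within 2.5 kb of the 5′ end of BCL2L1, BAX, BCL2L11 and PMAIP1, 4 of 10 members, against 6.41% of all protein-coding genes. A lost region did so at BID alone, 1 of 10 members, against 1.96% of all genes. By this narrower window a gain was found at 3 of 6 pro-death genes and 1 of 4 pro-survival genes. The distance from a member's 5′ end to the nearest gained region had a median of 10.1 kb, and it was 235 kb over all protein-coding genes. The median distance to the nearest lost region was 252 kb for the members and 360 kb for all genes. These distances come from the lists that the choice of members used, so they are a description and add no support to the counts.

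**Figure D2:**
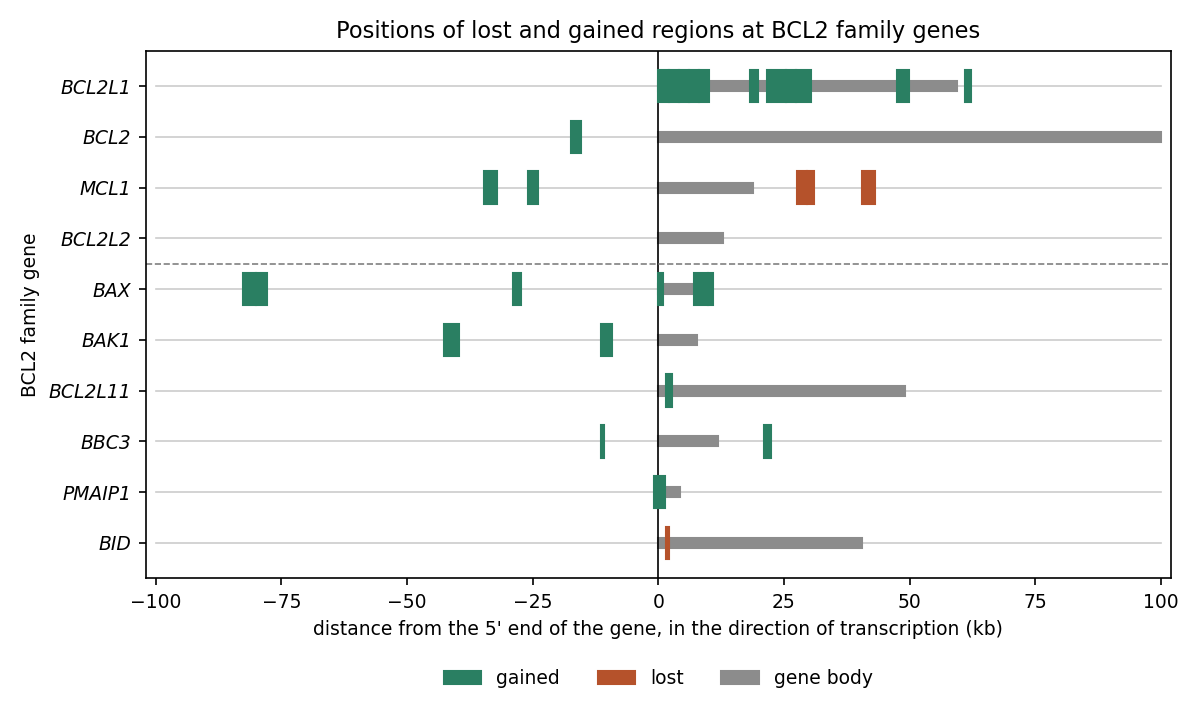
Position of each listed region relative to the 5′ end of its gene (x axis, kb, in the direction of transcription; negative values are upstream) for the 10 genes (y axis), gained in green, lost in orange and gene bodies in grey. Regions are drawn to scale, with a minimum width of 0.6 kb so that short ones stay visible. BCL2L1 carries gained regions along its body, whereas those of BCL2, MCL1 and BAK1 lie outside their genes.

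BCL2L1 (ENSG00000171552.14, chr20:31664452-31723989, minus strand) had the densest gain of the family. Of its 12 gained regions, 11 lay in the 59.5 kb gene body and covered 22247 bp, or 37.4% of it. The longest unbroken stretch was 10123 bp of 5 abutting regions (chr20:31713918-31724040) that ran from 51 bp upstream of the 5′ end to 10.1 kb inside the gene. It contained exons 1 and 2 of the canonical transcript, exon 2 being the one that carries the start of the BCL-xL reading frame. Abutting regions come from wide peaks cut into bins, so that the 5 regions are not 5 separate elements.

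A further stretch of 7659 bp (chr20:31693612-31701270), made of 3 abutting regions, lay in intron 2 between 22.7 and 30.4 kb from the 5′ end. The same intron held separate gained regions at chr20:31701814-31702419 (606 bp), chr20:31704164-31705709 (1546 bp) and chr20:31674196-31676559 (2364 bp). The last gained region, chr20:31661833-31662965, lay beyond the 3′ end. Exon 3 (chr20:31664458-31666086), the final exon, was in no listed region. The nearest lost region was 117 kb from the 5′ end, just outside the window.

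**Figure D3:**
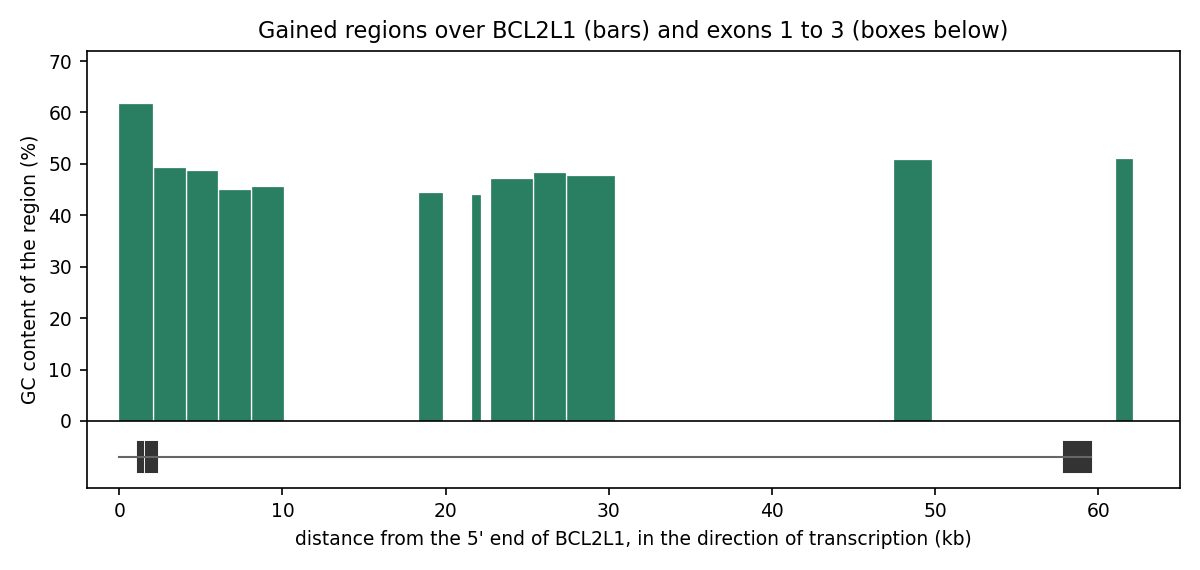
GC content (y axis, %) of the 12 gained regions at BCL2L1, each drawn as a bar over its extent from the 5′ end (x axis, kb), with exons 1 to 3 as boxes below the axis. The region over the 5′ end has the highest GC content at 61.8%, the others lie between 44.2% and 51.2%, and exon 3 has no bar over it.

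BCL2L1 was compared with genes of like size. It was chosen with these lists known, so its rank is a description and adds no support to the counts. Of 6560 protein-coding genes of 0.5 to 2 times its length, 859 had gained sequence in the body, with a median of 1252 bp. BCL2L1 had the most, followed by PXN (paxillin, a focal adhesion adaptor) with 15482 bp, LURAP1L with 15304 bp, DAB2 (an endocytic adaptor) with 12637 bp, NEK6 (a mitotic kinase) with 12381 bp and RND3 with 10927 bp. PXN and LURAP1L had no lost region in their windows either, and DAB2 had 9. Over all protein-coding genes, 6 including BCL2L1 had at least 11 gained regions in the body, and 10 had at least 12 by the wider rule. Abutting regions were counted singly for this. Among 14848 genes longer than 10 kb, 3 including BCL2L1 had at least the same share of the body in gained regions.

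**Figure D4:**
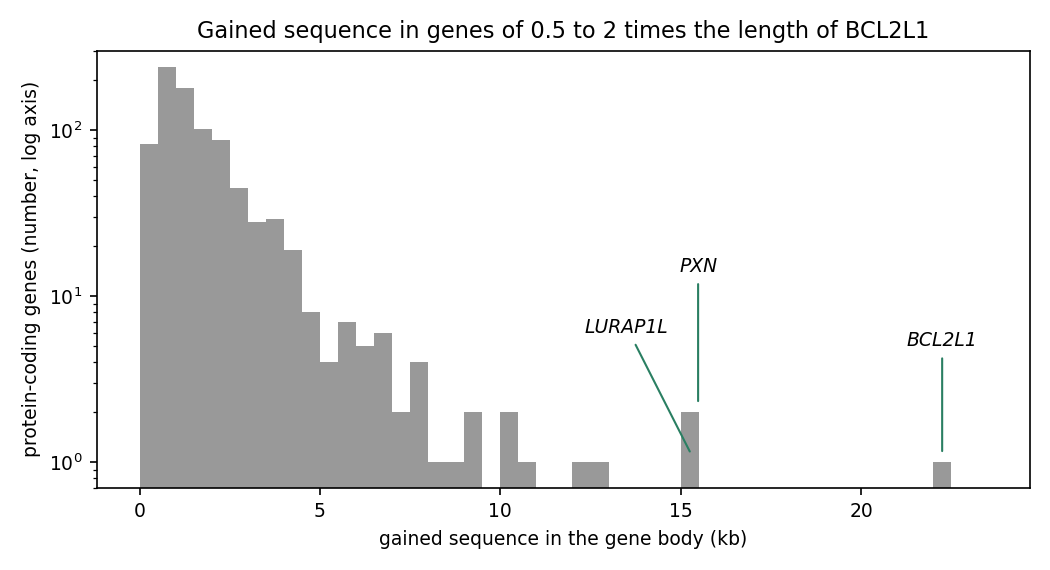
Number of protein-coding genes (y axis, log scale) by the amount of gained sequence in the gene body (x axis, kb, bins of 0.5 kb), for the 859 genes of 0.5 to 2 times the length of BCL2L1 with any. BCL2L1 lies alone at the right with 22.2 kb, ahead of PXN and LURAP1L.

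The other pro-survival genes differed from BCL2L1 in that no region of either direction touched their bodies. BCL2, the founding member, spans 197 kb (chr18:63123346-63320128, minus strand) and had 1 gained region (chr18:63335550-63337499, 1950 bp) between 15.4 and 17.4 kb upstream. That region lay in the body of KDSR, a sphingolipid synthesis gene, although its centre was nearer to the 5′ end of BCL2 than to that of any other protein-coding gene. The nearest lost region was 3539 kb away. BCL2L2, which encodes BCL-w (chr14:23298790-23311751, plus strand), was 320 kb from the nearest gained and 400 kb from the nearest lost region.

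MCL1, a short-lived guardian protein (chr1:150560895-150579738, minus strand), had losses on its 3′ side and gains on its 5′ side. The 3 lost regions were chr1:150536689-150539161 and the abutting pair chr1:150548709-150550181 and chr1:150550182-150552181, at 27.6 to 43.0 kb from the 5′ end of MCL1. The pair lay at the 5′ end of ADAMTSL4, a gene of microfibril assembly, and the centres of all 3 were nearest to that gene. The 2 gained regions, chr1:150603718-150605621 and chr1:150611823-150614379, lay in the body of ENSA, a regulator of the phosphatase PP2A. By nearest 5′ end 1 of the 5 regions belonged to MCL1.

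The effectors held gains that were in part those of their neighbours. BAX (chr19:48954815-48961798, plus strand) had a gained region of 949 bp at its start (chr19:48954821-48955769) that contained bases of exons 1, 2 and 3. Its other 5 gained regions were not nearest to BAX. The abutting pair chr19:48872156-48874814 and chr19:48874815-48876934 lay over PPP1R15A, which encodes the stress phosphatase subunit GADD34. Another abutting pair, chr19:48962015-48964619 and chr19:48964620-48965763, lay at the 5′ end of FTL, the ferritin light chain, and chr19:48925808-48927561 was nearest to DHDH. The window of BAX also held the 5′ ends of 16 other protein-coding genes.

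BAK1 (chr6:33572547-33580293, minus strand) had no region in its body. Its 2 gained regions lay upstream, 1 at 9.15 to 11.4 kb within the long non-coding gene LINC00336 (chr6:33589444-33591663) and 1 at 39.6 to 42.6 kb over the 5′ end of ITPR3 (chr6:33619929-33622899), an inositol trisphosphate receptor. The first was nearest to BAK1 and the other to ITPR3. The nearest lost region of BAK1 was 111 kb away, outside the window.

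Among the BH3-only genes, PMAIP1 and BCL2L11 gained at a start of transcription. PMAIP1 (chr18:59899996-59904305, plus strand) had 1 gained region, chr18:59899240-59901248, from 756 bp upstream to 1252 bp downstream of the 5′ end, which covered exon 1 and 29.1% of this short gene. All 250 upstream bases printed above lay inside it. BCL2L11 (chr2:111119378-111168444, plus strand) had 1 gained region of 1143 bp, chr2:111120899-111122041, that covered canonical exon 1, 1.52 kb inside the outermost annotated 5′ end. Of its 250 upstream bases printed above, the last 15 lay in this region. It also overlapped the long non-coding gene MIR4435-2HG.

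BBC3 and BID did not gain at a start. BBC3 (chr19:47220822-47232766, minus strand) had gained regions of 1302 bp beyond its 3′ end (chr19:47210343-47211644) and of 308 bp upstream (chr19:47243909-47244216). Both were nearest to BBC3, at 21.1 and 11.1 kb from its 5′ end. BID (chr22:17734138-17774770, minus strand), the link from death receptors to the mitochondrion, had the lost region chr22:17772843-17773335 at 1.44 to 1.93 kb inside the gene. Its nearest gained region was 303 kb away.

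The closest regions outside the 100 kb window show how far the counts depend on that edge. A gained region lay 117 kb from the 5′ end of BAX, and lost regions lay 117 kb from BCL2L1, 111 kb from BAK1, 119 kb from PMAIP1 and 148 kb from BID. Just inside the edge, the farthest regions counted were those at PPP1R15A in the window of BAX, 77.9 to 82.7 kb upstream.

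Base composition, which the choice of members did not use, varied widely among the regions. The 27 gained regions of members had a median GC content of 51.0% (range 40.6% to 66.7%), and all 3623 gained regions had a median of 46.1% (quartiles 40.3% and 56.5%). Their median CpG ratio, the observed number of CpG dinucleotides over the number that base content alone would give, was 0.308, beside 0.247 over the whole list. The 12 regions of BCL2L1 had a lower median CpG ratio of 0.179, with 0.644 in the region over the 5′ end and 0.0894 to 0.350 in the other 11. The gained regions at the starts of BCL2L11 (0.976) and PMAIP1 (0.763) had the highest CpG ratios of all 31 regions. The 4 lost regions had GC contents between 53.7% and 70.0%, against a median of 46.8% for all lost regions.

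**Figure D5:**
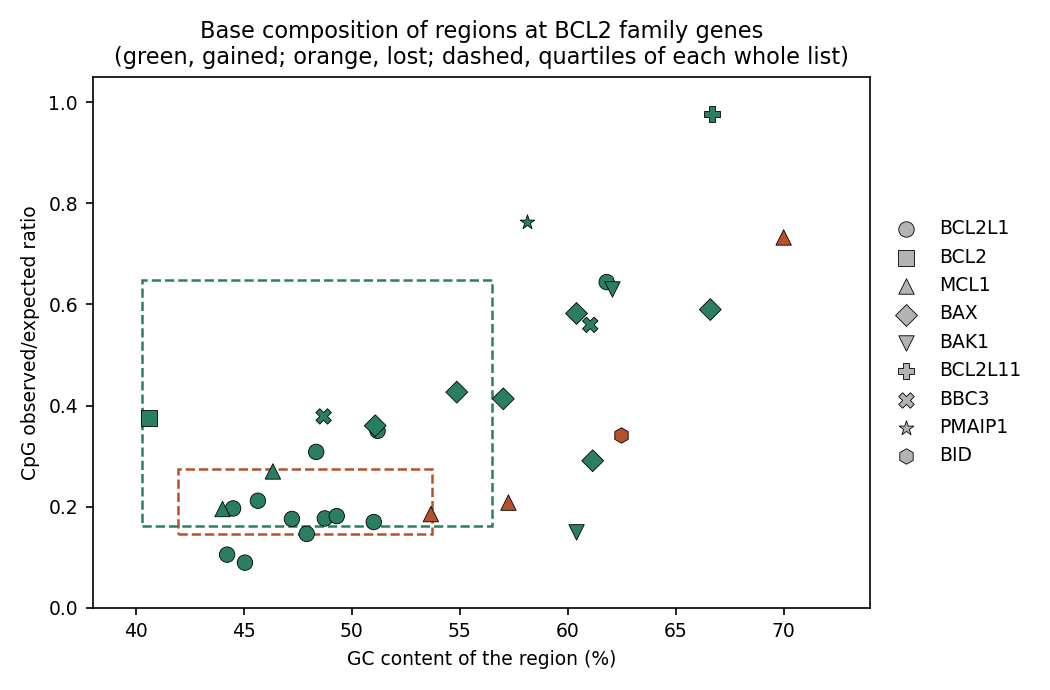
CpG observed/expected ratio (y axis) against GC content (x axis, %) of the 31 regions at BCL2 family genes, with 1 point per region, a shape for each gene, green for gained and orange for lost. Dashed boxes span the quartiles of the whole gained (green) and lost (orange) lists. The intronic regions of BCL2L1 sit low, with CpG ratios from 0.0894 to 0.308, and the starts of BCL2L11 and PMAIP1 sit highest.

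Motif letters were searched on both strands of every region, and the shares over whole lists are given beside each count. TTCNNNGAA was present in 10 of 12 BCL2L1 regions (16 matches) and in 2 of the other 15 gained regions of members, compared with 40.3% of all gained regions. Over all 27 gained regions of members, 12 held it, a share near that of the list. The 12 BCL2L1 regions share 1 locus and join to 5, so they are not independent and their counts are a description of that locus. In the central 1000 bp, which sets aside part of the difference in width, TTCNNNGAA was present in 8 of 12 BCL2L1 regions and 25.5% of all gained regions. CATTCC, the core read by TEAD factors, was present in 9 of 12 BCL2L1 regions, where 58.8% of all gained regions had it, but its count in the central 1000 bp fell to 4 of 12 (42.9% of all). TGANTCA, the AP-1 consensus, was present in 6 of 12 BCL2L1 regions and 53.6% of all gained regions. Matches overlapped in places, as where CATTCC shares bases with a TTCNNNGAA match near chr20:31717961-31717969. A match describes letters in a window and is not evidence of a bound factor.

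CACGTG was distributed the other way. It was present in no BCL2L1 region and in 7 of the other 15 gained regions, compared with 22.2% of all gained regions. Over all 27 gained regions of members the count was thus 7, a share near that of the list. The 7 lay in the windows of BCL2, MCL1, BAX, BCL2L11 and BBC3. Those of BCL2 and MCL1 were in the bodies of KDSR and ENSA, and some of those of BAX lay over PPP1R15A or near FTL. In the central 1000 bp, 4 of the other 15 regions held CACGTG (14.3% of all gained regions). The upstream sequence of BAX printed above held 4 CACGTG matches, 2 of them in the last 54 bases, which lie in its gained region. Of 34961 RefSeq upstream sequences of the same length, 6.35% held at least 1 match and 5 held at least 4. GGGCGG occurred 4 times in the upstream sequence of PMAIP1 and 3 times in that of BCL2L11, on either strand, and 42.7% of all upstream sequences had it.

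Some stress-response motifs had few matches in the family, and they were uncommon over the whole gained list too. Nothing particular to the family is read from their counts. TGATGCAA, the composite element of ATF4 and C/EBP factors, was found in 1 of the 27 gained regions, the one at the start of PMAIP1 (10.1% of all gained regions held it). The match lay in intron 1 at chr18:59900932-59900939 on the minus strand and is shown in capitals on the plus strand with 20 bases on either side.
PMAIP1 intron 1: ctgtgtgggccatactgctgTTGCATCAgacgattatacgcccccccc
TGACGTCA, the cyclic AMP response element, was also found in 1 gained region, that over PPP1R15A in the window of BAX (2.24% of all gained regions). Of the 4 lost regions, 3 held an NF-kB consensus (24.8% of all lost regions), but in the central 1000 bp 1 of 4 did (527 of all 3507). CATTCC was held by 1 of the 4 lost regions (73.5% of all lost regions).

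Other genes of the pathway were described from lists of 56 genes. Gained regions were found at 21 and lost regions at 9 of them by the same rule, where 30.6% and 21.7% of all protein-coding genes had one. These shares are the background for each list below, and nothing particular to a list is read from its count. In the rest of the BCL2 family, 6 of 13 genes had a gained region (30.6% of all genes) and 2 of 13 a lost one (21.7% of all genes). These were BCL2L10 and the mitophagy receptor BNIP3 with 3 each, BAD and BNIP3L with 2 each, and BMF and HRK with 1 each. The gained regions of BNIP3L lay in its body, 1 of them over its 5′ end. The lost regions were at HRK and BCL2L15, 1 each.

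Downstream of the mitochondrion, 5 of 12 genes of caspase activation had 1 gained region (30.6% of all genes) and 0 of 12 had a lost one (21.7% of all genes). Among them were DIABLO and HTRA2 (released inhibitors of IAP proteins), and XIAP and BIRC3 (caspase-restraining IAP proteins). That of DIABLO lay within 2.5 kb of the 5′ end. Among 6 mitochondrial partners, VDAC3 had 3 and BECN1 (beclin 1) 2 gained regions, while BAG3, a co-chaperone, had 2 lost regions in its body and VDAC2 had 1 lost region in its window.

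The death receptor branch, which is linked to the mitochondrion by BID, had gained regions at 3 of 10 genes (30.6% of all genes). Lost regions were found at 3 of 10 (21.7% of all genes). FAS had a lost region 1.86 kb from its 5′ end, TRADD had 2 lost regions, RIPK1 had 2 lost and 1 gained, and TNFRSF10A and TNFRSF1A had 1 gained each. Of 15 transcription factors known to act on the family, DDIT3 (CHOP, of the integrated stress response) had 4 gained regions, 2 of them within 2.5 kb of the 5′ end. TP63, STAT3 and GATA4 had 1 gained region each at a distance. MITF had 2 lost regions in its body and RELA 1 in its window.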

How the data were processed

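H3K27ac ChIP-seq reads were aligned by the authors to hg38 with Chromap, peaks were called per library against input with MACS2 (2.1.1.20160309) after removal of duplicates and blacklisted regions, and bins cut from them were normalised and tested with MAnorm2 over all 8 H3K27ac libraries. The deposited lists hold 3 columns (chromosome, start, end) for regions past an adjusted p of 0.15, as the list names state, whereas the methods name a stricter threshold. Unchanged regions were not used here. Starts were converted to count from 1.

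Overlaps were computed with Python 3.11.15 and pandas 2.3.3 on GENCODE release 44, a check of the overlap code on simulated regions being made beforehand. Distances were taken from the outermost 5′ end of each gene. Sequences were read from hg38, and upstream sequences from RefSeq (GRCh38.p14), in which 8 of 10 members were matched. Of 14 motifs, some, such as those of NF-kB, SRF, NRF1 and RUNX factors, were searched by their usual degenerate letters.

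No test was run, because no replicate values were at hand. The members and lists were chosen with earlier results of these data known. All members are named; in other lists, apart from items that are not reported here, all genes with a region where 6 or fewer had one and otherwise the 6 with most, ties included; up to 5 neighbours per member; and the 5 genes with most gained sequence at lengths like BCL2L1.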

Additional observations from a re-analysis of the deposited data

How the results depend on the processing

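No paired analysis was possible because neither list gives replicate signals. A stricter threshold and the omission of single replicates were not run either, since both need those values. The adjusted p threshold of 0.15 is lenient, and the effect of a stricter one on these counts is unknown.

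Counting the centre of a region, a window of 50 kb or the 5′ ends of all transcripts kept every class count within 1.5 times. Without BCL2L1, the gained regions of pro-survival members fell to 3, and joining regions within 1000 bp gave 8. Within 2.5 kb of the 5′ end, pro-survival genes had 2 gained regions (1 gene) and 0 lost (0 genes), and pro-death genes had 3 gained (3 genes). In gene bodies alone, pro-survival genes with a gain numbered 1 and with a loss 0 (0 lost regions), and pro-death genes had 3 gained regions (3 genes). Where the member had to be the nearest gene or the host, pro-survival losses went to 0 (0 genes) and pro-death gains to 6. With a window of 250 kb, lost regions rose to 5 (2 genes) in the pro-survival and 6 (3 genes) in the pro-death class. In the central 1000 bp the median GC content and CpG ratio moved by less than the SD among regions. Of the 168 results for single genes and motifs, 141 stayed within 1.5 times, but many of these were counts of 0 under both settings. Of the 72 results for class counts and base composition, 20 moved by more than their limit.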
